A study of Mus musculus with 8 samples.

Results

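The cytosolic ribosomal protein genes were taken by symbol: every gene whose symbol begins with Rpl or Rps and a digit, together with Rpsa, Rplp0, Rplp1 and Rplp2. Symbols that mark a pseudogene with -ps (259) and the Rps6k kinases (10) were left out. The rule gave 92 of the 47729 genes in the table. Of these, 46 encode proteins of the large subunit and 31 proteins of the small subunit, 13 are paralogs or retrocopies, and the other 2 encode different proteins, Rps19bp1 and Rpl7l1, which take part in ribosome assembly or are related to a ribosomal protein.

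The cytosolic ribosome reads mRNA in its small subunit and joins amino acids in its large subunit, and each subunit holds 1 copy of almost every one of its proteins. Ribosomal protein mRNAs are among the most abundant of a growing cell. In vertebrates they begin with a short run of pyrimidines, the 5′ TOP sequence, through which mTORC1 and LARP1 control their translation. Fau and Gnb2l1 (RACK1) encode ribosomal components too, but their symbols fall outside the rule.

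The tumors were grafts of B16 melanoma cells or of Lewis lung carcinoma (LLC) cells, placed under the back skin of syngeneic C57BL/6 mice that were either wild type (WT) or carried a *Ccrl2* knockout (KO). CCRL2 is a non-signalling receptor that binds chemerin. The grafted cells were not knocked out, so that the genotype concerns the host alone. The 4 groups, B16 WT, B16 KO, LLC WT and LLC KO, had 2 libraries each. Every library pooled 3 tumors, taken on day 5 according to the labels (the legends of the study give day 3 for B16). P-values therefore measure the spread between pools.

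The deposited values are counts scaled to 20 M reads on genes and rounded, and are given here per 1 M reads (RPM). Depth was estimated from the spacing of the low values as 24.3 to 27.9 M reads on genes for B16. It was 30.8 and 28.5 M for the LLC WT pools and only 19.8 (the weakest estimate) and 17.6 M for those of LLC KO. The low values were best described by rounding up in both LLC WT libraries and by rounding to the nearest in the other 6. Whether LLC WT was processed differently was not tested, and in LLC this cannot be told apart from the host genotype. *Ccrl2* itself was read at 3.10 to 4.25 RPM in B16 and at 5.15 to 11.4 RPM in LLC, and the groups overlapped by host genotype within LLC. The grafted cells carry the intact gene, so that its level checks no label. Several libraries stood apart. The 5 annotations that collect ribosomal RNA reads, of which 3 were at 0 in every library, summed to 1430 and 1650 RPM in LLC WT and to 76.0 to 176 RPM elsewhere. The sum of 4 Y-linked genes was 65.8 and 71.5 RPM in LLC KO and 0 in the other 6 libraries, so that the sex of the animals or cells and the host genotype cannot be told apart in LLC. The 5 skeletal muscle genes summed to 625 RPM in B16 WT replicate 1 and to 1.70 to 3.10 RPM elsewhere. The 6 melanocyte markers summed to 14271 to 17528 RPM in B16 and to 23.3 to 26.9 RPM in LLC. The 4 epithelial markers summed to 263 to 459 RPM in LLC and to 7.45 to 11.3 RPM in B16.

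Together the 92 genes took 6.36 and 6.34% of the reads in B16 WT, 6.34 and 5.91% in B16 KO, 7.46 and 6.31% in LLC WT and 8.39 and 8.49% in LLC KO. Both LLC KO libraries were above the other 6, and the LLC WT libraries did not overlap them but differed from each other by more than those of either B16 group did. The means were 8.44% ± 0.0688 (SD, n = 2) in LLC KO and 6.88% ± 0.814 (SD, n = 2) in LLC WT. In B16 they were 6.35% ± 0.00981 (SD, n = 2) in WT and 6.13% ± 0.303 (SD, n = 2) in KO hosts. The small subunit genes took 0.807 and 0.817 of the reads of the large subunit genes in B16 WT and 0.756 to 0.784 in the other 6 libraries, and the B16 WT and KO libraries did not overlap in this ratio.

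**Figure D1:**
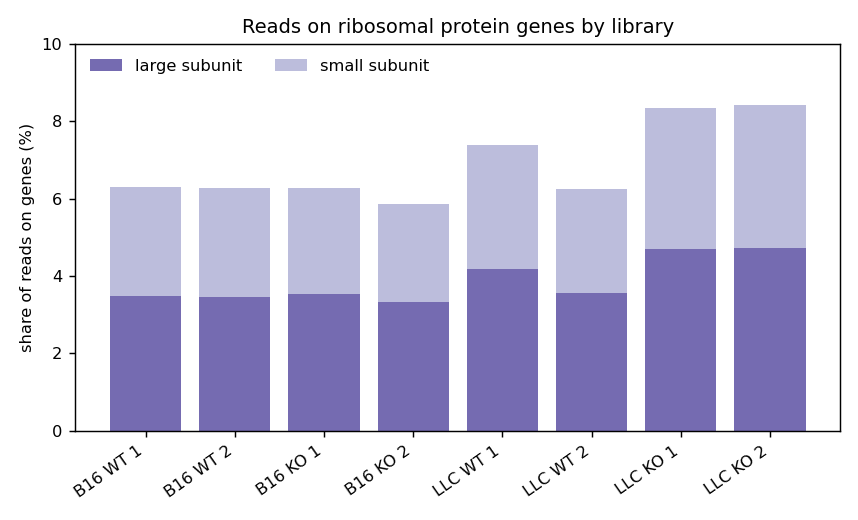
Share of the reads on genes (%, bars from 0) that fell on the 46 large subunit genes and the 31 small subunit genes, in each of the 8 libraries. Both LLC KO libraries have the largest total, while LLC WT replicate 2 is at the level of B16.

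The genes of both subunits were read at very different levels. Per kilobase of annotated exon, the mean over the 8 libraries was highest for Rplp1, a protein of the stalk that binds elongation factors, at 3624 RPM per kb. Rps15 followed with 1579, Rps3a1 with 1514 and Rpl36 with 1430 RPM per kb. The length joins the exons of all annotated transcripts of a gene, 383 bases for Rpl36 and 3175 for Rpl3. This order, and the shares of paralog pairs per kilobase given below, therefore depend on the annotation. In plain RPM, which is not a level per length, Rpsa, Rplp0 and Rpl4 had the highest values: Rpsa ranged from 2035 to 2818 RPM, Rplp0 from 1736 to 2593 RPM and Rpl4 from 1600 to 2775 RPM. Of the 77 subunit genes, 62 had a mean above 500 RPM and 76 a mean above 100 RPM.

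Rpl24, a large subunit protein, was the exception, with 0.250 to 1.60 RPM in all libraries. Its exons overlap those of Gm28037 on the same strand, which was listed at 0 in all 8 libraries, and counts per gene commonly leave out reads that fall on 2 genes. The level of Rpl24 is therefore uncertain. Exons of 28 of the 92 genes overlap those of another gene on the same strand, and exons of 20 overlap a gene on the other strand. The kit's strandedness and the handling of reads that map to several places are not given in the sources used here, so genes with near-identical retrocopies are uncertain as well.

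The remaining 3 genes did not pass the filter on low values (at least 1 RPM in 2 libraries). Rpl10l, a testis paralog, and Rps12l1 were at 0 in every library. Rpl3l, the paralog of Rpl3 that replaces it in striated muscle, was read at 3.05 RPM in B16 WT replicate 1 and at 0 to 0.250 RPM in the other 7. The library with Rpl3l is the one that held the skeletal muscle transcripts. The other 89 genes were tested.

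Starts of transcription were looked up to show the pyrimidine runs of ribosomal protein genes. RefSeq promoters on GRCm38.p6 were matched by symbol for 67 of the 92 genes, at 79 annotated starts. A run of at least 6 bases that are each C or T, read on the strand of the gene, lay within the 15 bases before to 15 bases after the start in 36 of the 67 starts of subunit genes (53.7%) and in 29.2% of all 32851 promoters in the table. A run of at least 8 was found in 26 of the 67 and in 3943 of the 32851. The sequences of 8 genes described below are shown 5′ to 3′ with the longest such run of 6 or more in capitals, and the annotated start is base 16 of 30.
Rps6: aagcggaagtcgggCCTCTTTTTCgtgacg
Rps27: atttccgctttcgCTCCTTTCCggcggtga
Rplp2: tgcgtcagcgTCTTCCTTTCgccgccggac
Rpl31: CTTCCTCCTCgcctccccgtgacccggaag
Rpl13: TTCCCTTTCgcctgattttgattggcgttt
Rpl5: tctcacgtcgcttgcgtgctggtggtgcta
Rps27l: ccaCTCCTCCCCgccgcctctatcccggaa
Rps27rt: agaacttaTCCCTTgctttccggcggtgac
They lie at chr4:86857353-86857382 (Rps6, minus strand), chr3:90213634-90213663 (Rps27, minus), chr7:141447636-141447665 (Rplp2, plus), chr1:39367836-39367865 (Rpl31, plus), chr8:123102335-123102364 (Rpl13, plus), chr5:107900513-107900542 (Rpl5, plus), chr9:66946071-66946100 (Rps27l, plus) and chr9:114982725-114982754 (Rps27rt, minus). Rps27l has a second annotated start, with a window at chr9:66946398-66946427, where the longest run is 4 bases. The annotated start may lie some bases from the one used in these tumors, and the absence of a run, as for Rpl5, says only that none lies in this window.

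The host comparison in LLC asked how the tumors differed between *Ccrl2* KO and WT mice. Ribosomal protein genes were higher in LLC KO: 44 of the 89 tested rose and 2 fell, at an adjusted p under 0.05 (limma over 14706 genes). Of all genes tested, 15.1% rose and 23.1% fell. The median log2 fold change was 0.31 over the ribosomal protein genes and -0.09 over all genes. Of the 46 large subunit genes 26 rose, and of the 31 small subunit genes 16 rose, with medians of 0.33 and 0.36. The 26 include Rpl24, which had the largest value of the subunit genes (1.04). Rpl24 passed the filter only through LLC KO, at 1.40 and 1.60 RPM, so its call is no support for the rise. Not one gene of either subunit fell. The 2 that fell were the paralogs Rps27l and Rps4l, and the others that rose were the copies Rps27rt and Rpl6l.

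Rps27 encodes a zinc-finger protein of the small subunit. It was read at 446 and 379 RPM in LLC WT and at 688 and 749 RPM in LLC KO, and the groups did not overlap. Its log2 fold change was 0.80 ± 0.10 (SE), or 1.74-fold, with an adjusted p of 0.0018.

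Rpl31 encodes a protein at the exit of the peptide tunnel. Its levels were 720 and 657 RPM in LLC WT and 1066 and 1140 RPM in LLC KO (log2 fold change 0.68 ± 0.08, adjusted p = 0.0017). The highest WT pool was well below the lowest KO pool.

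The large subunit protein Rpl21 stood at 906 and 822 RPM in LLC WT against 1326 and 1356 RPM in LLC KO, a log2 difference of 0.64 ± 0.08 (adjusted p = 0.0017). Rpl32, another large subunit protein, stood at 747 and 624 RPM against 1107 and 1098 RPM, a difference of 0.69 ± 0.10 (adjusted p = 0.0028). The KO pools lay close to each other for both genes, and the WT pools were further apart.

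Rps6, the small subunit protein that is phosphorylated downstream of mTORC1, was read at 812 and 701 RPM in LLC WT and at 1075 and 1039 RPM in LLC KO. Its log2 fold change was 0.49 ± 0.08 (adjusted p = 0.0050). Rps16, also of the small subunit, rose by 0.63 on the log2 scale.

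The 5S particle of Rpl5, Rpl11 and 5S rRNA is built into the large subunit and, when free, binds MDM2. Both of its proteins rose. Rpl5 went from 1106 and 937 RPM in LLC WT to 1424 and 1444 RPM in LLC KO (0.49 ± 0.09, adjusted p = 0.0067), and Rpl11 from 592 and 550 to 718 and 717 RPM (0.33 ± 0.07, adjusted p = 0.010).

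The P stalk recruits the elongation factors, and whether its 3 genes differ from each other in this comparison was not tested. Rplp0 was at 2593 and 2265 RPM in LLC WT and at 2510 and 2476 RPM in LLC KO, with a log2 difference of 0.04 (95% interval -0.20 to 0.29). Rplp2 was at 827 and 602 against 672 and 663 RPM, with a difference of -0.08 (-0.41 to 0.25). Rplp1 was at 1625 and 1278 against 1823 and 1862 RPM, and its difference of 0.35 missed the threshold (adjusted p = 0.064). None of the 3 stalk genes was called, and for Rplp0 and Rplp2 the KO pools lay between the WT pools.

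Of the other members named for their roles, some were called and some were not. Rpsa, which is also the laminin receptor precursor, rose by 0.36 and Rps3, which has a second role in DNA repair, by 0.46. Rpl13a, known for the GAIT complex, rose by 0.34 (adjusted p = 0.045). Of the 8 fits with 1 library left out, the call of Rpl13a was lost in 7, with a difference of 0.19 when replicate 2 of LLC WT was the one omitted, and that of Rpsa in 6. Only the omission of replicate 2 of LLC KO removed the call of Rps3. Rps19, the gene most often affected in Diamond-Blackfan anemia in humans, had a difference of 0.23 (-0.01 to 0.46, adjusted p = 0.11). Rps27a, made as a fusion with ubiquitin, had a difference of -0.01 (-0.29 to 0.27), and Rpl41, the smallest protein of the ribosome, one of 0.29 (adjusted p = 0.087).

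**Figure D2:**
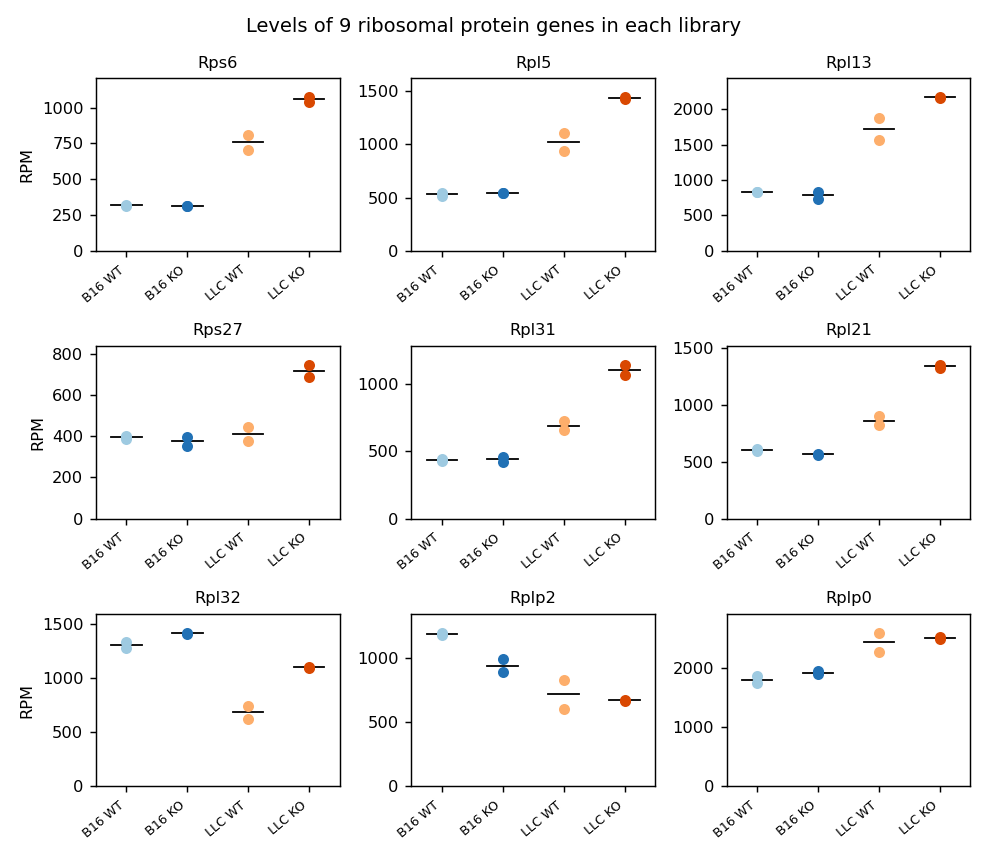
Level (RPM, axes from 0) of 9 ribosomal protein genes in each group, with 1 point per library and a line at the mean of 2. For Rps27, Rpl31, Rpl21 and Rpl32 both LLC KO points lie above both LLC WT points, while those of Rplp0 and Rplp2 overlap.

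The paralogs went in both directions. Rps27l, a paralog of Rps27 that p53 induces in human and mouse cells, was read at 152 and 116 RPM in LLC WT and at 91.9 and 90.0 RPM in LLC KO. It fell by 0.54 on the log2 scale (SE 0.15, adjusted p = 0.024), while Rps27 rose. The call was lost without LLC WT replicate 1 (-0.34) and without either LLC KO library (-0.56 and -0.53). Per kilobase, Rps27l made up 30.4 and 28.0% of the pair in LLC WT and 14.6 and 13.3% in LLC KO.

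Rps4l, an autosomal copy related to the X-linked Rps4x, was at 11.5 and 18.1 RPM in LLC WT and at 6.65 and 8.35 RPM in LLC KO. It fell by 0.91 (SE 0.22, adjusted p = 0.016), and the groups did not overlap, but the call was lost when replicate 2 of LLC WT (-0.59) or replicate 1 of LLC KO (-0.76) was left out. Rps27rt, a retrocopy of Rps27, was at 2.20 and 1.55 RPM against 6.75 and 7.10 RPM, a log2 fold change of 1.66 ± 0.20 (adjusted p = 0.0016). Rpl6l was at 4.65 and 3.25 against 7.80 and 7.85 RPM (0.92 ± 0.19). Such copies can take reads from their parent gene, and both parents were read at far higher RPM.

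Of the other pairs, Rpl22l1 stood at 54.5 and 44.8 RPM in LLC WT and 59.2 and 54.5 RPM in LLC KO (0.20, -0.10 to 0.50), while Rpl22 rose by 0.46. Rpl36al differed by 0.04 (-0.20 to 0.28) and Rpl36a rose by 0.37, a call that was lost in 7 of the 8 fits with 1 library left out (0.20 with replicate 2 of LLC WT omitted). Rpl39l, abundant in testis, was at 3.05 and 4.05 against 2.15 and 1.70 RPM and missed the threshold (-0.74, adjusted p = 0.079), whereas Rpl39 rose by 0.39. The calls of Rpl22 and Rpl39, like that of Rpl11, were lost when either LLC KO library was omitted, and that of Rpl6l when replicate 1 of LLC KO was. Rpl7l1, a nucleolar protein, differed by -0.20 (adjusted p = 0.087) and Rpl7 by 0.22 (adjusted p = 0.12).

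The rise rested in part on a few libraries. Without LLC WT replicate 2, which had the lowest share, the median fell to 0.16, with 33 genes higher and 3 lower. Without LLC WT replicate 1 it was 0.43, with 66 higher. With LLC KO replicate 1 or 2 left out, 12 and 13 genes were called higher, and when LLC was fitted alone, 7. Scaling by TMM factors, which moved the median of all genes in LLC from -0.09 to 0.00, gave 61 higher and 2 lower. The groups did not overlap for 70 of the 89 genes, against 69.6% of all genes. Of the members with no exon overlap with another gene, 19 of 50 rose and 2 fell.

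Markers of other cell types moved with the same comparison. The 5 fibroblast markers, all read in every library, summed to 11806 and 20350 RPM in LLC WT and to 6343 and 6688 RPM in LLC KO. The 5 macrophage markers summed to 3817 and 6714 RPM in LLC WT and to 2850 and 3486 RPM in LLC KO. The 6 endothelial markers summed to 208 and 147 against 5.80 and 51.8 RPM, and 6 T cell markers to 13.0 and 9.95 against 1.80 and 3.5 RPM. None of these markers was at 0 in every library, and 2 of the 5 fibroblast, 2 of the 5 macrophage and 5 of the 6 endothelial markers fell, while the macrophage marker Mrc1 rose by 0.65. LLC WT replicate 2, with the lowest ribosomal protein share of the 4 LLC libraries, had the highest fibroblast and macrophage sums. Their part in the result was not tested, and fewer cells of a type and less RNA per cell cannot be told apart in these pools.

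Related gene lists were read against the shares of all genes given above, 15.1% higher and 23.1% lower. These lists were chosen with earlier results known. Of 76 mitochondrial ribosomal protein genes, whose products form the separate ribosome of the mitochondrion, none rose and 35 fell in LLC KO, with a median of -0.26. Mrpl37 fell by 0.57, from 48.1 and 42.6 RPM to 29.4 and 31.2 RPM (adjusted p = 0.0063). Of 30 ribosome biogenesis genes none rose and 15 fell (median -0.29). Among them Bop1, of the PeBoW complex that matures the large subunit, fell by 0.63, and Bysl, of small subunit assembly, fell by 0.75. Of 12 genes of RNA polymerase III and 5S transcription none rose and 7 fell, and of 15 RNA polymerase I genes 2 rose and 4 fell.

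Of 19 elongation factors and other mRNAs with TOP-like starts, 8 rose and none fell (median 0.15). Tpt1, the translationally controlled tumor protein, went from 2831 and 2294 RPM to 4042 and 4085 RPM (0.67 ± 0.12, adjusted p = 0.0058). Of the ribosomal proteins under other symbols, Fau rose by 0.66 (adjusted p = 0.0044) and Gnb2l1 differed by 0.23 (adjusted p = 0.092). Of 9 snoRNA host genes tested, 2 rose (Snhg1 by 0.85, Snhg4 by 0.65) and Rcc1 fell by 0.75.

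In the same comparison 10 of 12 proliferation genes fell and none rose, and all 9 hypoxia genes tested rose. Among 20 regulators of MYC and mTORC1, 5 rose and 3 fell: Ddit4, an inhibitor of mTORC1 induced by stress, rose by 0.79, and Tsc2, another inhibitor, fell by 0.60. Of 7 genes of the 5S particle and p53 list, Trp53, Ccng1 and Bax fell by 0.51, 0.63 and 0.48, and Mdm4 rose by 0.32. These values stand beside the fall of Rps27l, and a link between them was not tested.

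Pseudogenes of ribosomal proteins were counted apart. Their -ps rows, those of Rpsa and the stalk genes included, summed to 160 to 197 RPM in the B16 libraries, to 354 and 280 RPM in LLC WT and to 547 and 586 RPM in LLC KO. Of 88 such rows tested, 56 were higher in LLC KO and none lower (median 0.73). At least 1 RPM was reached by 94 and 91 -ps rows in LLC KO, 73 and 65 in LLC WT and 30 to 34 in B16. Rows could thus pass the filter through LLC KO alone, which favors calls in the higher direction, so this count is not evidence of a rise. Reads of the parent genes can map to these copies, so that copy and parent cannot be told apart here.

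In B16 tumors no ribosomal protein gene was called in either direction between KO and WT hosts, and neither was any of the 14706 genes (0%, limma). The median log2 fold change was -0.05 over the ribosomal protein genes and -0.05 over all genes. At an unadjusted p under 0.05 there were 5 members, against 9.81% of all genes. The subunit genes spread from -0.39 to 0.17 with a median SE of 0.10.

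In this comparison 63 of the 89 members and 9055 of all 14706 genes had a log2 fold change below 0. The 5 members at an unadjusted p under 0.05 were all lower in KO hosts. They were Rps12, Rps24, Rps21 and Rpl36a, which belong to the subunits, and Rplp2 of the stalk. Rps12 stood at 1544 and 1589 RPM in WT hosts and at 1243 and 1156 RPM in KO hosts, a difference of -0.39 (95% interval -0.69 to -0.08, adjusted p = 0.47). Rplp2 was at 1174 and 1195 against 986 and 885 RPM (-0.34, -0.67 to -0.01, adjusted p = 0.50). Neither pair of groups overlapped, but neither gene was called. In B16 the 2 hosts did not overlap for 48 of the 89 members and for 6937 of all 14706 genes. Rps6 was at 318 and 316 RPM in WT and 316 and 314 RPM in KO, a difference of -0.01 (-0.21 to 0.19). Rps27 was at 389 and 402 against 396 and 355 RPM (-0.08, -0.31 to 0.16).

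**Figure D3:**
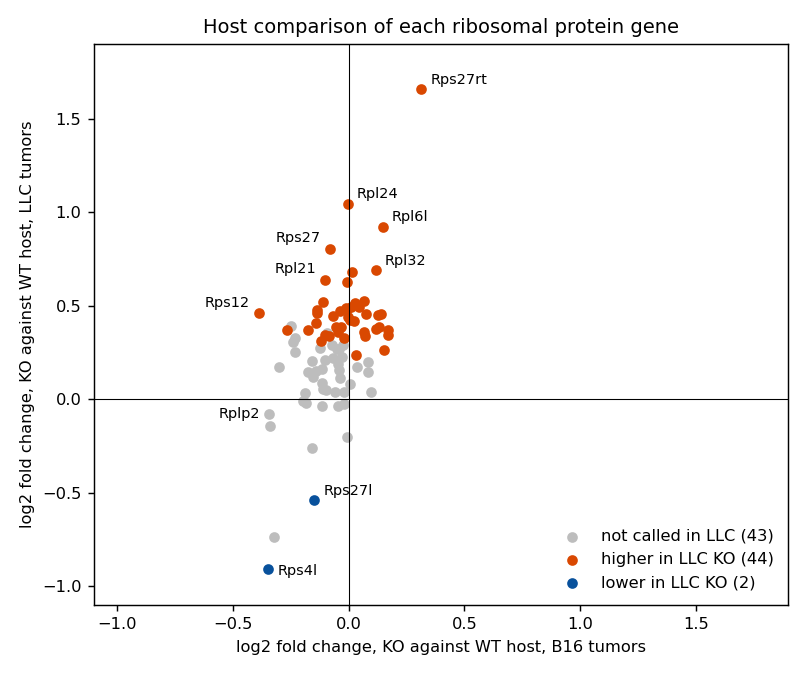
Log2 fold change of KO against WT hosts for the 89 genes tested, in B16 tumors (x axis) and in LLC tumors (y axis), colored by the call in LLC. Most points lie above 0 on the LLC axis and near 0 on the B16 axis, where no gene was called.

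The difference of the host effects in the 2 tumors was tested in the same model. It was called for 13 of the 89 genes, each with the larger value in LLC, and for none in the other direction. Of all genes, 8.15% were called with a larger and 7.05% with a smaller value in LLC. The median difference was 0.32 over the members and -0.05 over all genes. Rps12 is the member of this set whose B16 effect was farthest from 0: it rose by 0.46 in LLC KO, from 1391 and 1051 RPM to 1648 and 1685 RPM, a call lost in 6 of the 8 fits with 1 library left out, and the difference between tumors was 0.85 ± 0.19 (adjusted p = 0.027). Rpl21 had the smallest adjusted p, with a difference of 0.74 ± 0.11 (adjusted p = 0.011). This count depended strongly on single libraries: it was 59 without LLC WT replicate 1, 22 without LLC WT replicate 2 and between 0 and 2 without any one of the other 6 libraries. With TMM factors it was 33.

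Averaged over both tumors, 22 genes were higher in KO hosts and 2 lower, against 8.12% and 14.9% of all genes. The medians were 0.11 for the members and -0.07 for all genes. Rps27rt (0.99 ± 0.14), Rpl23a (0.30 ± 0.06), Rpl19 (0.25 ± 0.05) and Rps3 (0.26 ± 0.06) were among the called members for which all 4 KO libraries lay above all 4 WT libraries. The hosts did not overlap, in either direction, for 5 of the 89 members and for 575 of all 14706 genes. Rpl23a, a large subunit protein at the tunnel exit, had 127 and 134 RPM in B16 WT, 150 and 137 RPM in B16 KO, 127 and 118 RPM in LLC WT, and 161 and 175 RPM in LLC KO. The count fell to between 1 and 6 without either LLC KO library or any one B16 library, was 24 without LLC WT replicate 2 and rose to 45 without LLC WT replicate 1. With TMM factors it was 37 higher and 0 lower.

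LLC and B16 tumors were compared as averages over both hosts. Of the 89 members 49 were higher in LLC and 11 lower, against 39.9% and 37.7% of all genes. The median was 0.32 against 0.03 over all genes. The 77 subunit genes spread from -0.65 to 1.5, with an SD of 0.43, while in the LLC host comparison their SD was 0.21. The groups of 4 libraries did not overlap for 48 members, against 62.4% of all genes. All 5 fibroblast and all 5 macrophage markers were higher in LLC as well, and 11 of 12 proliferation genes were lower, and their part in these differences was not tested.

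Rps6 stood out by its level. It was read at 318, 316, 316 and 314 RPM in the 4 B16 libraries, and at 812, 701, 1075 and 1039 RPM in LLC. The log2 fold change was 1.5 ± 0.06, or 2.82-fold (adjusted p = 2.43e-07). The B16 libraries were nearly identical, and the lowest LLC library was more than double the highest of B16.

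Rpl13, a large subunit protein, was read at 735 to 831 RPM in B16 and at 1567 to 2175 RPM in LLC (1.26 ± 0.08, adjusted p = 2.53e-06). Rpl5 was at 516 to 546 RPM in B16 and at 937 to 1444 RPM in LLC (1.17 ± 0.07, adjusted p = 1.55e-06). Its partner in the 5S particle, Rpl11, differed by 0.39 ± 0.05. Rpl31 was at 422 to 458 against 657 to 1140 RPM (0.99 ± 0.06, adjusted p = 2.02e-06), and Rpl36a at 183 to 237 against 343 to 506 RPM (1.07 ± 0.08). In none of these genes did the 2 tumors overlap.

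Of the members lower in LLC, Rpl32 was at 1282 to 1425 RPM in B16 and at 624 to 1107 RPM in LLC (-0.65 ± 0.07, adjusted p = 6.35e-05). Rpl36 was at 637 to 745 against 333 to 496 RPM (-0.65 ± 0.07), and Rplp2 at 885 to 1195 against 602 to 827 RPM (-0.62 ± 0.10, adjusted p = 0.00066). Rps27l was at 162 to 207 against 90.0 to 152 RPM and fell by 0.81 (SE 0.10, adjusted p = 0.00017). Rps26 was lower by 0.23, a call that was lost without B16 KO replicate 1 (-0.20), and Rpl19 by 0.19, although its groups overlapped. Within the stalk, Rplp0 was higher in LLC by 0.41 while Rplp1 and Rplp2 were lower by 0.27 and 0.62 on the log2 scale, so that its 3 genes differed between the tumors in both directions. The call of Rplp1 was lost in 5 of the 8 fits with 1 library left out (-0.36 to -0.19 over the 8) and in either host alone, and that of Rplp2 in none of these.

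**Figure D4:**
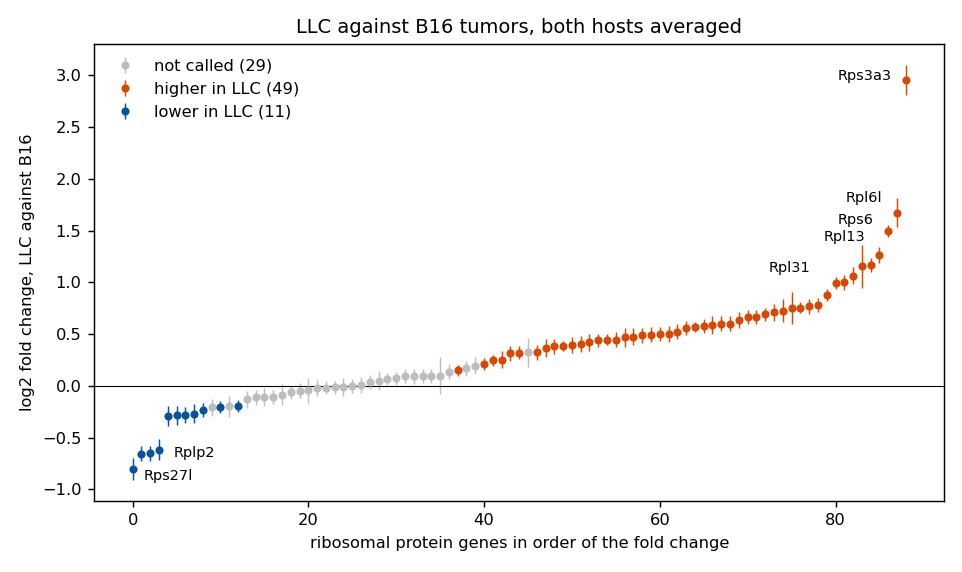
Log2 fold change of LLC against B16, averaged over both hosts, for the 89 genes tested in order of their value, with bars of 1 SE and the call in color. Rps3a3, Rpl6l, Rps6 and Rpl13 lie at the upper end and Rps27l and Rplp2 at the lower end.

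Among the copies, Rps3a3 was at 1.05 to 1.45 RPM in B16 and at 9.0 to 14.9 RPM in LLC (2.96 ± 0.15, adjusted p = 7.07e-07), while its parent Rps3a1 differed by 0.50. Rps3a3 made up 0.117 to 0.134% of the pair per kilobase in B16 and 0.770 to 0.966% in LLC. Rps3a2, another copy, was at 4.30 to 5.55 against 7.45 to 8.90 RPM. Rpl36al took 46.6 to 50.7% of its pair with Rpl36a in B16 and 29.5 to 35.6% in LLC, while the level of Rpl36al itself differed by 0.10 (-0.07 to 0.26). Rpl22l1 was lower in LLC by 0.28 on the log2 scale (a call lost in 3 of the 8 fits with 1 library left out), and Rpl22 differed by -0.01 (-0.22 to 0.20). Rpl37rt was at 9.50 to 14.3 RPM in the 8 libraries.

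**Figure D5:**
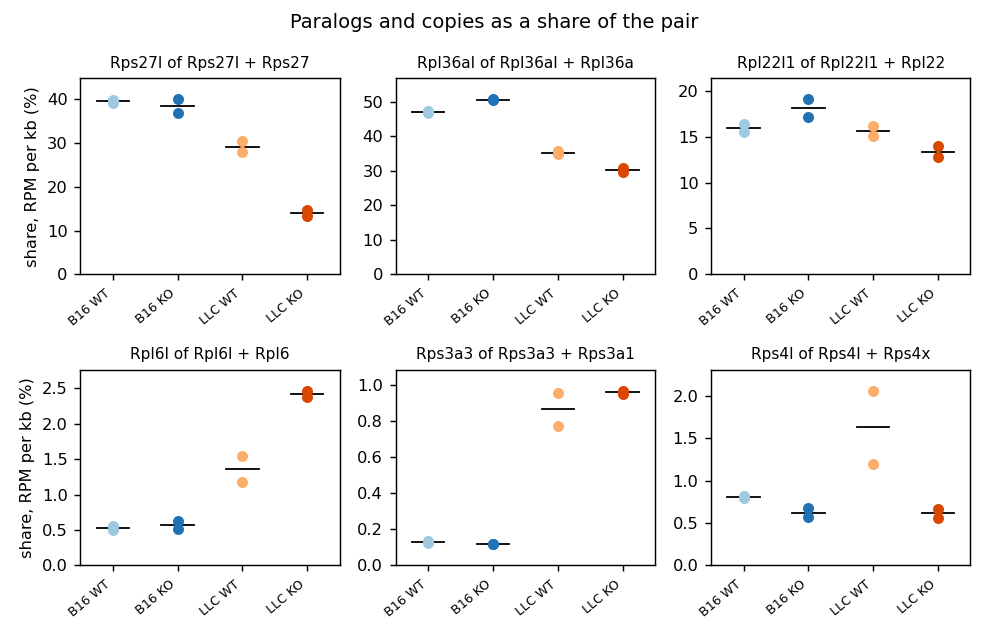
Share of the paralog or copy in the summed RPM per kilobase of the pair (%, axes from 0), with 1 point per library and a line at the mean of 2. Rps27l is at 36.8% or more in every B16 library and at 14.6 and 13.3% in LLC KO, and Rps3a3 is higher in all 4 LLC libraries than in B16.

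Neighboring genes give a second view of this comparison. Rpl32 lies on chromosome 6, where the 799 genes tested had a median of -0.59, and the 24 genes within 1 Mb of Rpl32 had a median of -0.83. Rps4l, on the same chromosome, was higher in LLC by 0.75 while the 13 genes around it had a median of -0.33. Rps7, a small subunit protein on chromosome 12, went from 634 to 694 RPM in B16 to 1029 to 1579 RPM in LLC, a log2 difference of 1.00, and the 5 genes around it had a median of -0.88. On the autosomes other than chromosome 6 and on the X chromosome, the medians over all genes tested lay between -0.12 and 0.34. The 6 genes within 1 Mb of Rps6 had a median of 0.55, with 4 of them above 0, and the 13 around Rpl31 one of 0.67. The 44 genes around Rpl13 had a median of 0.09, and the 24 around Rpl5 one of 0.33. Whether copy number differs at these places was not tested.

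Sequence features were set beside these differences. Over the 77 subunit genes, the log2 fold change of LLC against B16 had a Pearson r of -0.29 and a Spearman rho of -0.27 with the GC content of the transcripts, and 0.08 and 0.13 with exon length. These are descriptions across genes, which share the same libraries. Once smooth trends on length and GC were removed from each library, 51 members were higher and 17 lower. Of the 57 subunit genes with a promoter sequence, the 35 with a pyrimidine run of 6 or more had a median of 0.25 and the 22 without one a median of 0.35. In the LLC host comparison these medians were 0.27, with 18 genes higher, and 0.34, with 12 higher.

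The comparison of tumors was also made within each host genotype, which in LLC cannot be told apart from the sex of the animals or cells. Between WT hosts alone, 25 members were higher in LLC and 7 lower, against 32.8% and 29.3% of all genes, with a median of 0.13 against 0.05. Between KO hosts alone, 61 were higher and 5 lower, against 36.1% and 35.3% of all genes, with a median of 0.47 against 0.00. Averaged over both hosts, 39.9% of all genes were higher in LLC and 37.7% lower. Of the related lists in that comparison, 58 of 76 mitochondrial ribosomal protein genes were lower in LLC and 5 higher (median -0.47). Of 30 ribosome biogenesis genes, 15 were higher and 5 lower. Of 19 elongation factors and other TOP mRNAs, 10 were higher and 1 lower, among them Pabpc1, the cytoplasmic poly(A)-binding protein, by 1.29.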

How the data were processed

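Tumor RNA was sequenced as paired reads from TruSeq libraries. The authors used Trimmomatic for trimming, STAR for alignment to the mm10 genome (GRCm38.p4) and HTSeq for counts by gene (versions not stated). They compared groups with EdgeR on Degust. The deposited values are a score: the authors' counts scaled to 20 M per library and rounded, so no count model was fitted. Scores were divided by 20 to give RPM.

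Groups were compared with limma 3.58.1 (R 4.3.3) on log2(RPM + 0.5), with a variance trend, in 1 model of 4 groups (4 residual and 3.685 prior degrees of freedom). Genes with at least 1 RPM in 2 libraries were tested (14706), with Benjamini-Hochberg adjustment over all of them and a threshold of 0.05. Fold changes of low genes are understated by the pseudocount. Fits and depth estimates were tested on simulated data. Gene positions are from GENCODE M21 (GRCm38).

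Named members were the 5 with the smallest adjusted p in each direction, per comparison, among called members with non-overlapping groups, members against the main direction, those with the highest and lowest RPM, and members picked for their role or as paralogs. Members and lists were chosen with earlier results of these data known. Of each related list, up to 4 genes with the smallest adjusted p were named. Rps7, and Rps12, Rps21 and Rps24 in B16, and Rps16 and Rpl6l in LLC were named after their values were seen. TMM and other scalings, filters, pseudocounts, a replicate block and leaving out libraries were tried as alternatives. Some genes included in the counts are not reported here by name.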

Additional observations from a re-analysis of the deposited data

Results flagged for a closer look

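For 13 ribosomal protein genes the host effect (log2 fold change of KO against WT hosts) differed between the 2 tumors by the test of the difference itself (limma, adjusted over 14706 genes). Among them, the difference, LLC minus B16, was 0.74 for Rpl21, 0.88 for Rps27, 0.66 for Rpl31, 1.34 for Rps27rt and 0.85 for Rps12. It was 0.63 for Rps16, 0.50 for Rps6, 0.62 for Rpl17 and 0.57 for Rpl32. For Rpl36a it was 0.64, for Rpl30 0.55 and for Rpl26 0.51. All 13 also rose in LLC KO, and none was called in B16, where none of all 14706 genes was called. Of all genes, 8.15% were called with a larger and 7.05% with a smaller value in LLC. With 1 library left out, the count of 13 ranged from 0 to 59.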

How the results depend on the processing

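In LLC, 44 members higher and 2 lower in KO hosts became 28 and 1 with no filter, 7 and 0 with LLC fitted alone, 19 higher among members with no exon overlap, and 0 lower among the 2 subunits. They were 8 lower without LLC WT 2 and B16 KO 2 together, and 12 to 66 higher and 0 to 3 lower with 1 library left out. Averaged over both tumors, 22 and 2 became 10 and 0 with no filter, 37 and 0 with TMM factors, 34 and 1 with median-of-ratios factors, 9 higher with no exon overlap and 0 lower among the subunits. The lower count was 1 with a pseudocount of 0.05 RPM, robust moderation, or totals without the members or without mitochondrial and rRNA-derived genes, 4 without those 2 libraries, and 1 to 45 higher and 0 to 6 lower with 1 left out. The 13 differences of host effects became 3 with no filter, 33 with TMM and 31 with median-of-ratios factors, 7 with no exon overlap, and 0 to 59 with 1 left out. The lower count was 1 with length and GC trends removed or without the 2 libraries, and 0 to 1 with 1 left out. For LLC against B16, 49 and 11 became 25 and 7 in WT hosts, 61 and 5 in KO hosts, 25 and 6 with no exon overlap, 17 lower with the trends removed, and 47 to 58 and 7 to 17 with 1 left out. The B16 host comparison had 0 calls throughout. The labels do not say whether the replicate numbers pair pools. Correlations of deviations between groups were -0.03 to 0.31, which cannot settle this. A fit with a replicate block gave 45 and 2 in LLC and 20 differences. The cause of these shifts was not tested, except that fewer libraries or members were used where some were left out.

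TMM factors moved the share of higher calls among all genes from 39.6 to 56.3% in LLC, from 35.3 to 61.2% averaged over tumors and from 53.6 to 64.6% for the difference. With median-of-ratios factors these shares were 54.1, 59.1 and 61.2%. The settings on exon overlap, subunits, length and GC, the total without mitochondrial and rRNA-derived genes and the joint omission of 2 libraries were chosen after seeing the data. Of 789 values under alternatives of the members named because they were called, 642 kept their call, 147 lost it and 0 changed sign. Members named for their role or as paralogs are outside this tally.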
